A study of Mus musculus with 6 samples.

Results

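The genes described here are those that make cholesterol and fatty acids, with the genes that control the sterol pathway. They were chosen by name: 30 genes were listed, and a gene was measured when a probe set of the array carried its symbol and no other. This gave 29 genes of the 19937 genes measured in all, each read from its brightest probe set, by mean over all arrays. Acat2, which encodes the cytosolic thiolase that starts the pathway, had no such probe set and was not analysed here. Of the measured genes, 17 encode enzymes of the sterol branch, 7 enzymes of the fatty acid branch and 5 encode proteins that control or move sterols.

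RNA came from primary neurospheres, which are free-floating clusters grown by cultured neural precursors. All 6 samples are labelled as big neurospheres, and smaller spheres were not analysed here. The donor tissue was hippocampus, taken from male C57BL/6J adults of 8 to 12 weeks. EGF and bFGF, both growth factors, were in the medium of each group, and spheres were collected on day 14. The norepinephrine group, 3 samples, also received 10 µM of this monoamine transmitter, and the KCl group, 3 samples, received 15 mM potassium chloride, which depolarises neurons. Each sample was run on 1 array. Untreated spheres were not analysed here, and a difference between the treatments therefore cannot be assigned to either of them. The samples are labelled as biological replicates, but nothing says that animals or cultures were separate, so p-values cover only the spread among these samples. Spheres mix cells of several kinds, and in such bulk RNA more cells of a type and more RNA per cell cannot be told apart.

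Cholesterol is built from acetyl-CoA by way of mevalonate, isoprenoids, squalene and lanosterol. Fatty acids are built from the same acetyl-CoA by carboxylation, chain synthesis, elongation and desaturation. When membrane sterol is low, the escort protein Scap carries SREBP transcription factors, encoded by Srebf1 and Srebf2, to the Golgi, where they are cut and freed to switch on genes of both branches. Insig proteins hold Scap back when sterol is plentiful. In the brain cholesterol is made locally, largely by glia, and dividing cells need it for new membrane.

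All values are log2 expression values as deposited, and every difference is norepinephrine minus KCl, so that 1 stands for a doubling. The array of KCl replicate 1 stood apart, with a standard deviation of 1.38 over all named probe sets, against 1.62 to 1.78 on the other 5 arrays. It read bright genes low and dim genes high. Most of the genes described here are bright, but Pmvk, Tm7sf2 and Ebp, at mean levels of 7.18, 7.07 and 6.57, are not. Results are therefore given with and without that array. Beside them stand the values of all 3810 genes whose mean level lay in the band from 8.11 to 9.62. This band holds the middle of these 29 genes. Those outside it, such as Elovl5 at 10.78 and Lss at 7.59, are not matched to it in level. Markers of neural stem cells, which form neurospheres, had a mean over 10 genes of 9.55 to 9.62 with norepinephrine and 9.22 to 9.47 with KCl. No array pair held identical values.

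No gene of either branch passed the test. When limma p-values were adjusted by Benjamini-Hochberg over all named probe sets, 0 of the 29 genes had an adjusted p under 0.05, the lowest adjusted p being 0.939, and 0% of all genes were called. At an unadjusted p under 0.05 there were 0 of 29 genes, against 3.18% of all genes (2.18% of all genes in the higher direction), and also 0 without KCl replicate 1, against 4.37%. By direction alone, 25 of the 29 genes were higher with norepinephrine on 6 arrays, against 37.8% of all genes and 69.0% of genes in the same level band. Without KCl replicate 1 the count was 16 of 29, against 52.6% of all genes and 48.2% of the band, and after a further quantile normalization of 6 arrays it was 21 of 29, against 43.1% and 52.5%. The median difference of the 29 genes was 0.22 on 6 arrays and 0.03 without that array. For all genes the medians were -0.07 and 0.01, and for genes of the band 0.13 and -0.01. Over the whole sterol branch the median was 0.30 on 6 arrays, with 15 of 17 genes higher, and 0.03 without that array, with 10 of 17 higher. Leaving out norepinephrine replicate 1 gave 0.18, and leaving out KCl replicate 2 gave 0.50.

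The count at an unadjusted p turned on which KCl array was left out. Without KCl replicate 2, which keeps the array that stood apart, 8 of the 29 genes had an unadjusted p under 0.05, against 15.7% of all genes and 22.6% of the level band. These were Fdps at 0.82 ± 0.25, Sqle at 0.98 ± 0.43, Lss at 0.76 ± 0.32, Cyp51 at 0.50 ± 0.22, Msmo1 at 1.24 ± 0.40, Nsdhl at 0.80 ± 0.33, Hsd17b7 at 1.02 ± 0.33 and Elovl5 at 1.09 ± 0.47. Without KCl replicate 3 it was Elovl5 alone, at 1.24 ± 0.44, against 2.73% of all genes. After limma's adjustment 0 of the 29 genes and 0% of all genes were called in either case, and without KCl replicate 1 it was 0 of the 29 and 0.00502% of all genes.

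**Figure D1:**
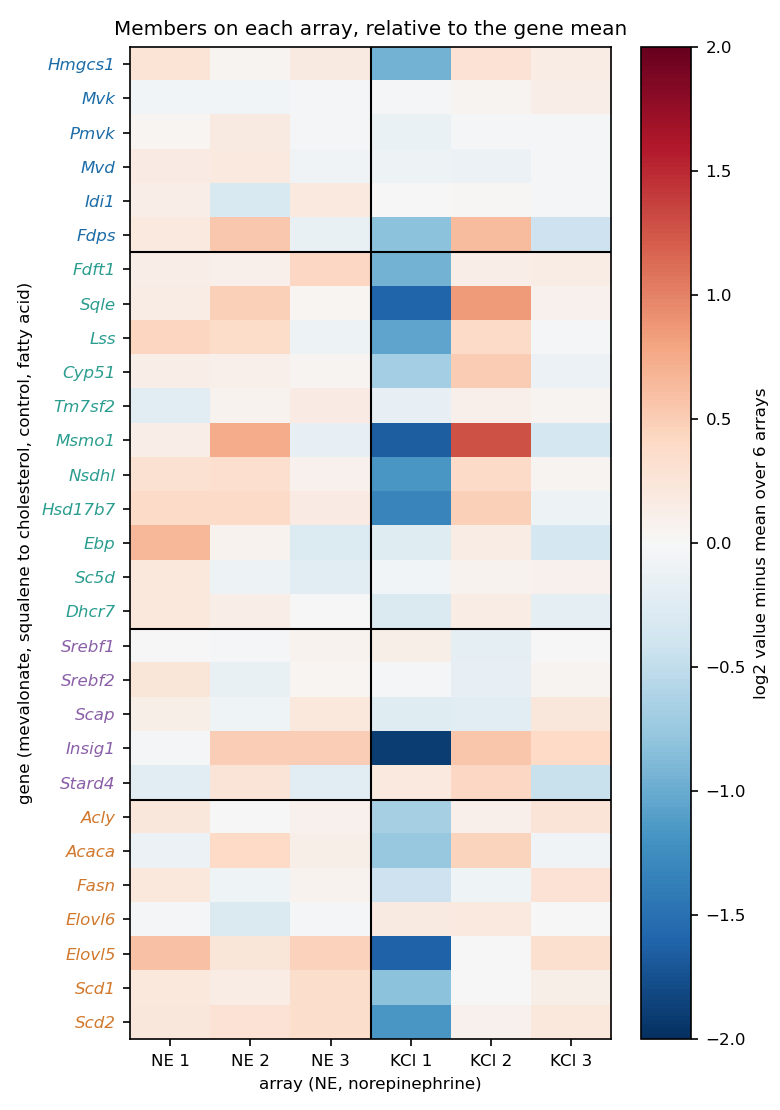
Log2 value of each of the 29 genes (rows, in pathway order) on each of the 6 arrays (columns), minus the gene's mean over the 6 arrays. Insig1, Msmo1, Sqle, Elovl5 and Hsd17b7 are the darkest blue on KCl replicate 1. Srebf1, Srebf2, Mvk and Idi1, the last read from its brighter probe set, are pale on every array.

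The promoters show what the control region of these genes looks like, and windows before the transcription start of 6 genes are printed as examples. Their products stand for the entry to mevalonate, the sterol transcription factor, sterol ring processing, the sterol sensor's anchor and fatty acid elongation. Srebf2 is printed although it differed little between the treatments. Each run is the 250 bases before the RefSeq start on the gene's own strand, assembly GRCm38.p6, and lies at chr13:119690101-119690350 (plus) for Hmgcs1, chr15:82147019-82147268 (plus) for Srebf2, chr8:64733579-64733828 (minus) for Msmo1, chr1:169969206-169969455 (minus) for Hsd17b7, chr5:28071162-28071411 (plus) for Insig1 and chr9:77917115-77917364 (plus) for Elovl5. Capitals mark CCAAT, the site of the factor NF-Y (ATTGG on the other strand), the sterol regulatory element letters TCACNCCAC or TCACCCCA, and the E-box CACGTG.
Hmgcs1: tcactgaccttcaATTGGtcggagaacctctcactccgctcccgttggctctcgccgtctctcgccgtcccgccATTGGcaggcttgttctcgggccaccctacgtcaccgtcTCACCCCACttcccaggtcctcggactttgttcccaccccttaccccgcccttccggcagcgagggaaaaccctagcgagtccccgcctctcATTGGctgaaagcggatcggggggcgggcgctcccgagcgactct
Srebf2: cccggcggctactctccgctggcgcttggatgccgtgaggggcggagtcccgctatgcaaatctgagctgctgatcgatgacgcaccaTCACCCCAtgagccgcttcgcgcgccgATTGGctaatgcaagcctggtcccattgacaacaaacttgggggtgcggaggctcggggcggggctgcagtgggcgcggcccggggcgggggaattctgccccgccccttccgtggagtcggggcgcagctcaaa
Msmo1: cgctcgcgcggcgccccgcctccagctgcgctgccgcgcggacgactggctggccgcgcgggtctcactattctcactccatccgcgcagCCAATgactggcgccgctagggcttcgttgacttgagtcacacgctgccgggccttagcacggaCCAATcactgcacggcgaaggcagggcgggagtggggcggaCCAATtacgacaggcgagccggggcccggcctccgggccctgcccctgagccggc
Hsd17b7: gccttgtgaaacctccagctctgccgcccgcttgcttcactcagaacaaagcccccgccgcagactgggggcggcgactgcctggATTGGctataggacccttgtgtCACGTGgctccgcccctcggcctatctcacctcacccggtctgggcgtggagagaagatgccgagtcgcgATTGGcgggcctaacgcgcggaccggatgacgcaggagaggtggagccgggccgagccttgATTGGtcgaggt
Insig1: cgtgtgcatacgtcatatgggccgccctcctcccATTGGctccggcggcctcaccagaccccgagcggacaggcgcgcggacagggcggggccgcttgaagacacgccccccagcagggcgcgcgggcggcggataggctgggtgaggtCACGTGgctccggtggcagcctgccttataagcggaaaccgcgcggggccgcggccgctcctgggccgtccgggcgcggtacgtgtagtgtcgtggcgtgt
Elovl5: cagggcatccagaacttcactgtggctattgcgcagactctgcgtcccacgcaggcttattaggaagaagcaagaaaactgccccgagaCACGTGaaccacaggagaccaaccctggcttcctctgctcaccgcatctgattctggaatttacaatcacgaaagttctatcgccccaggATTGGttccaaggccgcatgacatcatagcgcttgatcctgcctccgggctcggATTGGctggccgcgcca

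Of the 29 genes, 23 had at least 1 such window, and both strands were searched. CCAAT lay in a window of 19 of them, or 82.6%, against 38.8% of the 15613 measured genes that had a window. The GC box GGGCGG lay in 18, or 78.3%, against 49.3%, and CACGTG in 6, or 26.1%, against 8.11%. TCACCCCA was found in 2 genes, Hmgcs1 and Srebf2, against 1.56% of genes, and both are among the printed windows. TCACNCCAC was found in Hmgcs1 alone, against 1.2%, and there it overlaps TCACCCCA. Counts were also made for 4 further spellings. The full classical sterol regulatory element and TCACGTGA were in 0 of the 23 genes, against 0.064% and 1.25% of genes, CACCCCAC was in Hmgcs1 alone, against 3.15%, and GCCACGTG was in 3, Dhcr7, Hsd17b7 and Insig1, against 1.4%. They share letters with the motifs above, and which motifs to mark was decided after the matches of all 9 were seen. These letters describe the windows and say nothing of whether a factor bound there in these cells.

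The first steps of the sterol branch, from acetyl-CoA units to isoprenoids, were read in 6 genes, with a median difference of 0.16 on 6 arrays and 0.05 without KCl replicate 1. Hmgcs1, the synthase whose product the rate-limiting reductase turns into mevalonate, read 10.72, 10.51 and 10.63 with norepinephrine and 9.51, 10.74 and 10.61 with KCl replicates 1, 2 and 3. On 5 arrays it lay within a narrow range, and KCl replicate 1 was low. Its difference was 0.33 ± 0.32 (SE, n = 3 per group) and -0.05 ± 0.16 without that array. Fdps, which makes farnesyl diphosphate, the last step shared with other isoprenoids, read 9.52, 9.87 and 9.18 with norepinephrine and 8.50, 9.96 and 8.91 with KCl. Replicate 2 was the highest in each treatment, and the groups overlapped. Its difference was 0.40 ± 0.37, and 0.09 ± 0.31 without KCl replicate 1.

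The kinases Mvk and Pmvk, which phosphorylate mevalonate in turn, and the decarboxylase Mvd read close together on all arrays. Mvk read 7.61, 7.62 and 7.62 with norepinephrine and 7.63, 7.72 and 7.80 with KCl. All KCl arrays were above all norepinephrine arrays, but the nearest arrays lay at 7.63 and 7.62. The difference of Mvk was -0.10 ± 0.17. Pmvk read 7.22, 7.36 and 7.16 with norepinephrine and 7.05, 7.15 and 7.14 with KCl, with no overlap the other way, also by a small margin. Its difference was 0.13 ± 0.18, and that of Mvd was 0.18 ± 0.18. KCl replicate 1 minus the mean of KCl replicates 2 and 3 was -0.13 for Mvk, -0.10 for Pmvk and -0.03 for Mvd. After a further quantile normalization these gaps were -0.11, -0.36 and -0.13.

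Idi1, the isomerase that makes the reactive isoprenoid unit, had 2 probe sets, and they disagreed in size. The brighter, which represents the gene, read 9.67, 9.23 and 9.73 with norepinephrine and 9.52, 9.56 and 9.50 with KCl. Its difference was 0.02 ± 0.20. The other probe set read 9.22, 8.51 and 9.05 with norepinephrine and 7.04, 8.65 and 8.82 with KCl, so it was low on KCl replicate 1 where the brighter probe set was not. Its difference was 0.76 ± 0.44, and 0.19 ± 0.22 without that array. The platform table gives both probe sets the same transcript accessions. Probe set numbers of the other genes run by chromosome, and Idi1 lies on chromosome 13. By number, the dimmer probe set falls between Fasn on chromosome 11 and Hmgcs1 on chromosome 13. The brighter falls between Scd1 on chromosome 19 and Pmvk on chromosome 3, so its flat values may not be those of Idi1. Which of them reads the gene more faithfully was not tested.

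The steps from squalene to cholesterol were read in 11 genes and had the largest median difference of the 4 gene groups on 6 arrays, 0.44, with 10 of 11 higher with norepinephrine. Without KCl replicate 1 the median was 0.03, with 6 of 11 higher. Sqle, squalene epoxidase, the first oxygen-dependent step, read 9.37, 9.70 and 9.26 with norepinephrine and 7.62, 10.07 and 9.30 with KCl. KCl replicates held the lowest and the highest value of the gene. Its difference was 0.44 ± 0.53 and turned to -0.25 ± 0.25 without KCl replicate 1.

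Msmo1, the methylsterol oxidase that strips methyl groups from the sterol ring, read 9.04, 9.64 and 8.74 with norepinephrine and 7.25, 10.18 and 8.54 with KCl. Its SD was 0.46 over the norepinephrine arrays and 1.47 over the KCl arrays, which was the largest of the 29 genes within KCl. Its difference was 0.48 ± 0.63 (95% interval -0.94 to 1.91), and -0.22 ± 0.43 without KCl replicate 1. Hsd17b7, a ketoreductase of the same demethylation complex, read 8.98, 8.99 and 8.77 with norepinephrine and 7.29, 9.08 and 8.50 with KCl. Its difference was 0.62 ± 0.40, and 0.12 ± 0.21 without that array. Nsdhl, the decarboxylating dehydrogenase of that complex, read 10.12, 10.16 and 9.90 with norepinephrine and 8.66, 10.20 and 9.87 with KCl, a difference of 0.48 ± 0.36 that was 0.03 ± 0.18 without it. In all 3 genes of the complex KCl replicate 1 was the lowest array and KCl replicate 2 the highest.

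Lss, which folds the epoxide into lanosterol, read 8.01, 7.95 and 7.49 with norepinephrine and 6.54, 7.97 and 7.57 with KCl, a difference of 0.45 ± 0.35. Cyp51, the lanosterol demethylase, read 9.38, 9.34 and 9.29 with norepinephrine and 8.56, 9.74 and 9.11 with KCl, a difference of 0.20 ± 0.29. Without KCl replicate 1 these differences were 0.04 ± 0.22 and -0.09 ± 0.21. Fdft1, squalene synthase, had 2 probe sets that ran alike, at 0.44 ± 0.30 and 0.40 ± 0.25. Both of them read lowest on KCl replicate 1.

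In the other 4 genes of the group, KCl replicate 1 minus the mean of KCl replicates 2 and 3 ranged from -0.27 to -0.14. Of these, Tm7sf2 and Ebp are dim, with mean levels of 7.07 and 6.57. After a further quantile normalization this gap was -0.54 for Tm7sf2 and -0.56 for Ebp, near the -0.52 of Fdft1. It was 0.40 for Sc5d and 0.08 for Dhcr7. Dhcr7, the reductase that yields cholesterol, differed by 0.22 ± 0.20, Sc5d, the desaturase just before it, by -0.07 ± 0.19, and Tm7sf2, a sterol reductase, by 0.00 ± 0.19. Ebp, the isomerase that shifts the ring's double bond, read 7.23, 6.64 and 6.30 with norepinephrine and 6.32, 6.72 and 6.22 with KCl, and its high value lay on norepinephrine replicate 1. Its difference of 0.30 ± 0.27 was 0.26 ± 0.28 without KCl replicate 1, the largest of the sterol branch on those 5 arrays.

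**Figure D2:**
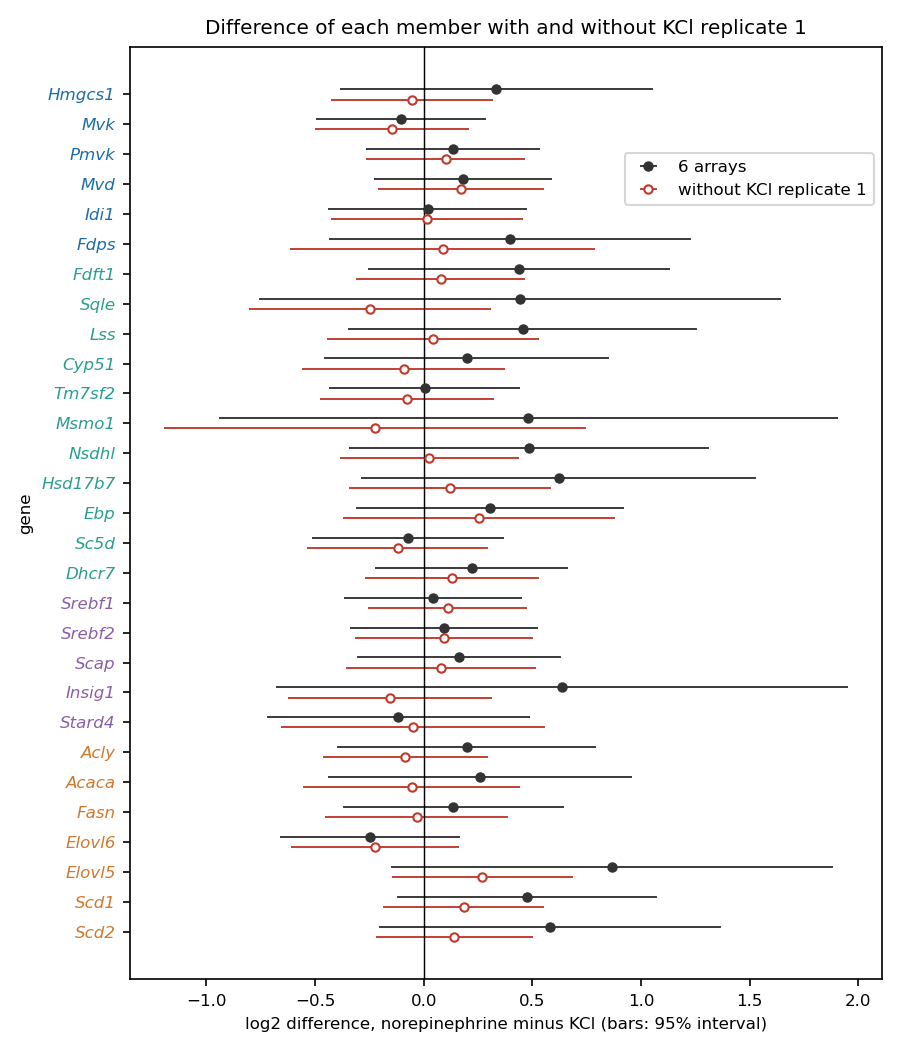
Difference of each of the 29 genes (rows) as norepinephrine minus KCl in log2 units, with 95% intervals from limma. Filled points use 6 arrays and open points leave out KCl replicate 1; every interval crosses 0, and without that array all differences lie between -0.25 and 0.27.

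Among the genes of sterol control, the transcription factors and their escort differed little. Insig1 was low on KCl replicate 1, as were Sqle and Msmo1 but not all enzymes, Mvk and Elovl6 among the exceptions. Srebf1, which drives mainly fatty acid genes, read 8.12, 8.10 and 8.19 with norepinephrine and 8.23, 7.93 and 8.12 with KCl, a difference of 0.04 ± 0.18. Srebf2, which drives mainly sterol genes, read 8.83, 8.45 and 8.64 with norepinephrine and 8.55, 8.43 and 8.65 with KCl, a difference of 0.09 ± 0.19. On KCl replicate 1 neither was low. Scap read 9.74, 9.54 and 9.83 with norepinephrine and 9.38, 9.40 and 9.85 with KCl, a difference of 0.16 ± 0.21.

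Insig1, itself a target of SREBP, read 10.33, 10.87 and 10.87 with norepinephrine and 8.47, 10.93 and 10.77 with KCl. KCl replicate 1 minus the mean of the other KCl arrays was -2.38, the largest such gap among the 29 genes, and the groups overlapped. Its difference was 0.64 ± 0.58, and -0.16 ± 0.21 without that array. Stard4, a carrier that moves cholesterol between membranes, read 7.63, 8.12 and 7.65 with norepinephrine and 8.05, 8.28 and 7.42 with KCl, a difference of -0.12 ± 0.27. As in Msmo1 and Fdps, replicate 2 was the highest of each treatment, but KCl replicate 1 was not low. The median of the 5 control genes was 0.09, or 0.08 without KCl replicate 1 and -0.05 after a further quantile normalization.

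The fatty acid branch had a median of 0.26 over 7 genes, 6 of them higher with norepinephrine, and of -0.03 without KCl replicate 1, with 3 of 7 higher. Elovl5, which lengthens polyunsaturated fatty acids, had the largest difference of the 29 genes, at 0.86 ± 0.45 (95% interval -0.15 to 1.88, unadjusted p = 0.0862). It read 11.37, 11.02 and 11.24 with norepinephrine and 9.16, 10.79 and 11.09 with KCl. KCl replicate 1 was far below the rest, and the groups overlapped by a small margin. Without it the difference was 0.27 ± 0.19 (95% interval -0.15 to 0.69), still the largest of the 29.

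The desaturases Scd1 and Scd2, which put the double bond into saturated acyl chains, did not overlap between the treatments. Scd1 read 10.90, 10.84 and 11.03 with norepinephrine and 9.87, 10.68 and 10.80 with KCl. Its difference was 0.47 ± 0.26 (95% interval -0.12 to 1.07), and 0.18 ± 0.16 without KCl replicate 1. Scd2, the main form in brain, read 10.69, 10.75 and 10.81 with norepinephrine and 9.29, 10.54 and 10.68 with KCl. The gap between its lowest norepinephrine and highest KCl array was small, and the difference was 0.58 ± 0.35, or 0.14 ± 0.16 without that array. As the transcripts are closely related, some probes could read both, which was not tested.

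Elovl6, which lengthens saturated chains of the kind Fasn makes, ran the other way. It read 9.45, 9.22 and 9.46 with norepinephrine and 9.67, 9.69 and 9.50 with KCl, without overlap. Its difference was -0.25 ± 0.18 (95% interval -0.66 to 0.17), and -0.22 ± 0.17 without KCl replicate 1. Counting both directions, the treatments did not overlap in 5 of the 29 genes, namely Mvk, Pmvk, Elovl6, Scd1 and Scd2, or 17.2%, against 9.03% of all genes and 12.3% of the level band. Of these, 3 were higher with norepinephrine, or 10.3%, against 4.44% of all genes and 9.5% of the band. Without KCl replicate 1 these were again the 5 genes, against 16% of all genes and 21.4% of the band. There 3 were higher, against 8.27% of all genes and 11.2% of the band, and 2 lower, against 7.76% and 10.2%.

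The enzymes that supply and build the chain, read from their brightest probe sets, turned slightly below 0 without KCl replicate 1. Fasn, the fatty acid synthase, read 8.75, 8.45 and 8.60 with norepinephrine and 8.13, 8.45 and 8.82 with KCl, a difference of 0.14 ± 0.22. Acly, which releases acetyl-CoA from citrate in the cytosol, differed by 0.20 ± 0.26, and Acaca, the carboxylase that makes malonyl-CoA, by 0.26 ± 0.31. Without KCl replicate 1 these 3 differences were -0.03 ± 0.19, -0.08 ± 0.17 and -0.06 ± 0.22. The second probe set of Acaca read 8.02, 8.54 and 7.61 with norepinephrine and 6.87, 8.87 and 7.16 with KCl, with replicate 2 the highest of each treatment. Its difference was 0.42 ± 0.49, and 0.04 ± 0.45 without KCl replicate 1, so there the 2 probe sets differed in sign.

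**Figure D3:**
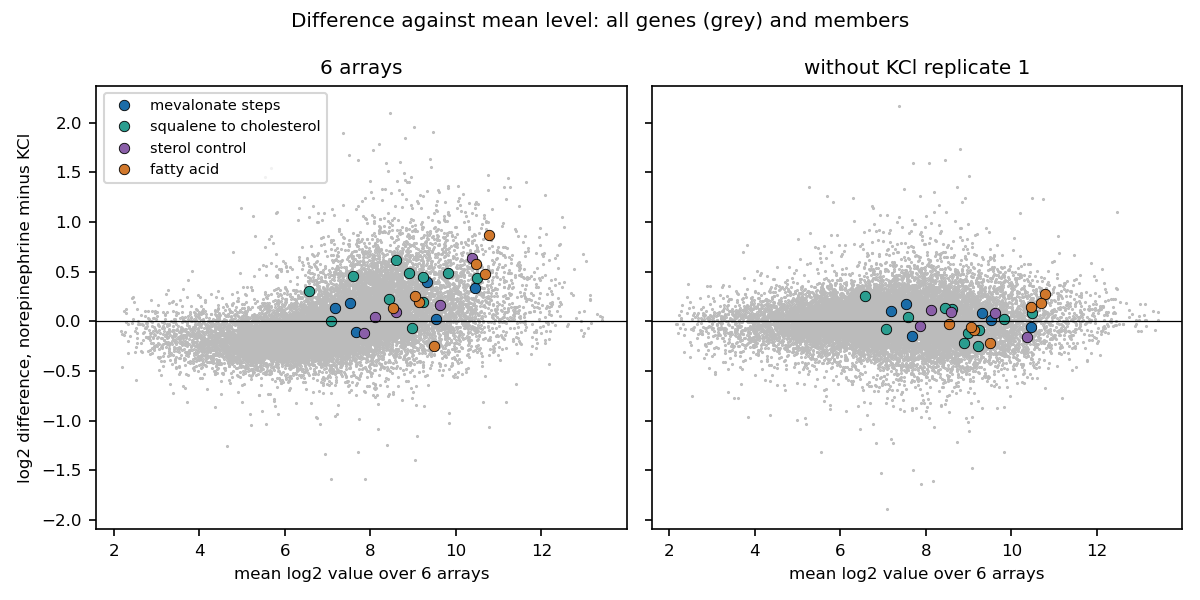
Difference, norepinephrine minus KCl, against mean log2 level over the 6 arrays for all 19937 genes (grey) and the 29 genes (coloured by group), on 6 arrays (left) and without KCl replicate 1 (right). On the left the grey cloud tilts upward with level and the coloured points have a median of 0.22; on the right their median is 0.03.

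The array of KCl replicate 1 was lowest of the 6 in 19 of the 29 genes, against 24.7% of all genes and 60.7% of the level band. When the deposited values were quantile normalized once more, which gives all arrays the same distribution, it was still lowest in 19 of 29, against 26.4% of all genes and 39.5% of the band. In the sterol branch the count after this step was 13 of 17. It lay at least 1 log2 unit below the mean of KCl replicates 2 and 3 in 10 of the 29 genes as deposited, and in 6 after that step, against 8.09% and 6.7% of all genes and 21.9% and 14.6% of the band. Those 6 were Sqle, Lss, Msmo1, Hsd17b7, Insig1 and Elovl5, with gaps of -1.94, -1.54, -2.17, -1.56, -1.93 and -1.23 after quantile normalization. Of the 10 as deposited, Hmgcs1, Fdft1, Nsdhl, Insig1, Elovl5 and Scd2 were brighter than the band and Lss dimmer. The band share is therefore not matched to these genes in level. After quantile normalization, the median difference between the treatments was 0.20 for the sterol branch, 0.14 for the fatty acid branch and -0.05 for the control genes.

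On that array the mean of the squalene to cholesterol genes was 7.80, against 8.56 to 9.04 on the other 5 arrays. The fatty acid mean was 8.98 on it and 9.83 to 9.93 elsewhere, and the mean of the level band was 8.31 on it and 8.72 to 8.93 elsewhere. The fatty acid mean was above that of the band on every array, so the band is not matched to this group in level. The markers of microglia, brain immune cells, ran the opposite way, with a mean over 11 genes of 6.64 on KCl replicate 1 and 5.84 to 6.13 elsewhere, as did the 10 markers of endothelium and pericytes, at 6.82 and 6.18 to 6.62. These are dim genes, and their median gap of KCl replicate 1 to the mean of KCl replicates 2 and 3 was 0.66 for microglia and 0.55 for endothelium and pericytes as deposited, and 0.20 and 0.17 after quantile normalization. Aif1, a defining microglial gene, read 5.95, 6.08 and 5.94 with norepinephrine and 6.50, 5.72 and 6.05 with KCl. The part of array quality or of other cells in the low sterol values of this array was not tested.

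**Figure D4:**
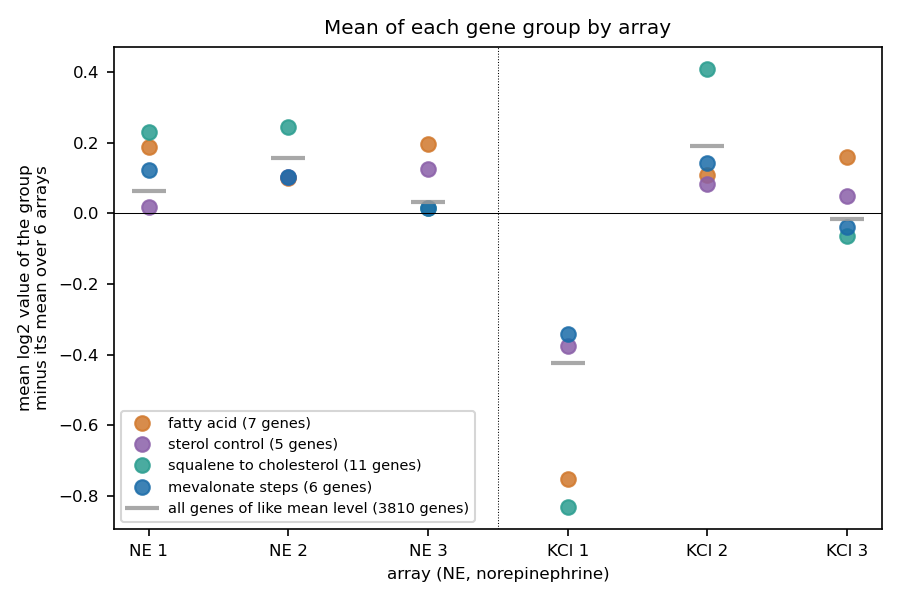
Mean log2 value of each gene group on each array, minus the group's mean over the 6 arrays, with all 3810 genes of like mean level as a grey bar. On KCl replicate 1 the squalene to cholesterol and fatty acid groups lie below the grey bar, while the mevalonate and control groups lie slightly above it, and on KCl replicate 2 the squalene to cholesterol group is the highest.

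Replicates 2 and 3 of the same treatment also differed. KCl replicate 2 was at least 0.5 above KCl replicate 3 in 8 of the 29 genes, against 10.9% of all genes and 24.5% of the level band. These were Msmo1 at 1.63, Fdps at 1.05, Stard4 at 0.86, Sqle at 0.77, Cyp51 at 0.63, Hsd17b7 at 0.58, Acaca at 0.52 and Ebp at 0.51. Between norepinephrine replicates 2 and 3 the same differences were 0.90, 0.69, 0.47, 0.44, 0.05, 0.22, 0.28 and 0.34, and 2 of the 29 genes, Msmo1 and Fdps, reached 0.5 there, or 6.9%, against 6.08% of all genes and 13% of the band. Both treatments reached it in the same 2 genes, against 3.97% of all genes and 9.66% of the band. Replicate 2 was the highest array of both treatments in 8 of the 29 genes, or 27.6%, against 19.2% of all genes and 43.3% of the band. In these counts the share of the 29 genes was close to that of the band or below it. The median of replicate 2 minus replicate 3 was 0.22 with norepinephrine and 0.40 with KCl in the squalene to cholesterol group, and 0.10 and 0.03 in the mevalonate group. In the fatty acid group it was -0.15 and -0.13, for genes of the band 0.11 and 0.19, and for all genes -0.07 and -0.13. The differences between these groups were not tested. These are differences between single arrays and have no replicate check.

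**Figure D5:**
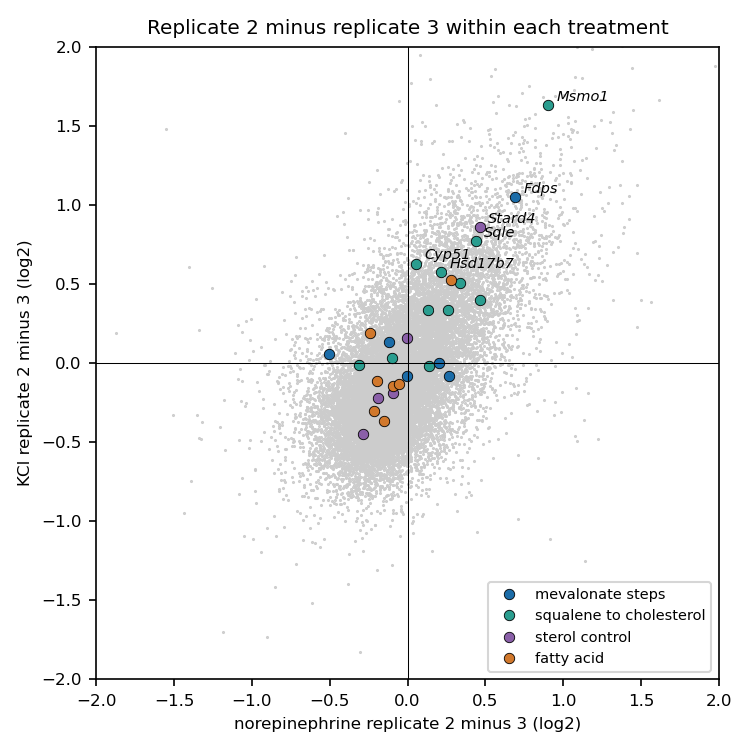
Replicate 2 minus replicate 3 within norepinephrine (horizontal) and within KCl (vertical), in log2 units, for the 29 genes (coloured by group) and all genes (grey, 10 of them outside the plotted range of 2 units). Msmo1, Fdps, Stard4 and Sqle lie far to the upper right, and most fatty acid genes lie in the lower left.

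Other genes of the pathways were read from 4 further lists. Of 13 measured enzymes of sterol and isoprenoid synthesis outside the 29 genes, 8 were higher with norepinephrine and 7 without KCl replicate 1. The medians were 0.03 and 0.10. On 6 arrays, against 3.18% of all genes, 0 of these 13 enzymes had an unadjusted p under 0.05. Their mean was 8.04, 8.55 and 8.03 on the norepinephrine arrays and 7.84, 8.46 and 7.98 on the KCl arrays, highest on replicate 2 in each treatment. The mean of the level band was also highest there, at 8.80, 8.89 and 8.77 with norepinephrine and 8.31, 8.93 and 8.72 with KCl. Of 26 further fatty acid enzymes and regulators, 19 were higher and 17 without KCl replicate 1, with medians of 0.22 and 0.10. In that list 1 gene had an unadjusted p under 0.05, or a share near the 3.18% of all genes. This was Thrsp, a regulator of lipid synthesis, which read 10.63, 10.41 and 10.44 with norepinephrine and 9.71, 9.96 and 10.07 with KCl, without overlap, and its difference was 0.58 ± 0.19 and 0.48 ± 0.17 without KCl replicate 1 (limma adjusted p = 0.939). Without that array Lpin1, a phosphatidate phosphatase named here after its values were seen, also had an unadjusted p under 0.05, at -0.44 ± 0.16, against 4.37% of all genes.

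The list of sterol uptake, export and storage held the largest single difference. Of its 17 measured genes, 10 had a higher mean with norepinephrine. The median was 0.15, and 0.05 without KCl replicate 1. Apoe, the lipoprotein of astrocytes that carries cholesterol, read 11.21, 10.82 and 11.19 with norepinephrine and 9.97, 9.62 and 10.05 with KCl. The groups lay apart, and the difference was 1.20 ± 0.21, or 1.24 ± 0.20 without KCl replicate 1, with a limma adjusted p of 0.80 on 6 arrays and 0.152 without it. Lcat, which esterifies lipoprotein cholesterol, differed by 0.65 ± 0.28 (limma adjusted p = 0.939) and by 0.35 ± 0.19 without that array. At an unadjusted p under 0.05 there were 2 of these 17 genes, Apoe and Lcat, against 3.18% of all genes. Without KCl replicate 1 there was Apoe alone, against 4.37%. Of 10 partners of SREBP processing, 6 were higher, with a median of 0.05, and 5 without KCl replicate 1, with a median of 0.004. Ubxn1, a ubiquitin-binding protein, differed by 0.77 ± 0.31 (limma adjusted p = 0.939) and by 0.40 ± 0.18 without that array. It was the 1 gene of the 10 at an unadjusted p under 0.05, against 3.18% of all genes. Without that array there were 0, against 4.37%.

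Of 15 astrocyte markers, 13 were higher with norepinephrine both on 6 arrays and without KCl replicate 1, with medians of 0.40 and 0.21, and their mean was 9.17 to 9.30 with norepinephrine and 8.43 to 8.86 with KCl. Gfap differed by 1.89 ± 0.30, and by 2.17 ± 0.24 without that array (limma adjusted p = 0.774 on 6 arrays and 0.0450 without it). With each gene read from its brightest probe set, Gfap was the 1 gene of all genes called without KCl replicate 1. Over all named probe sets 4 were called there. Of 10 markers of oligodendrocyte precursors, 6 were higher on 6 arrays and 8 without KCl replicate 1, with medians of 0.15 and 0.23. Of 13 neuron markers, 9 and 11 were higher, with medians of 0.08 and 0.16. Of 13 markers of myelinating oligodendrocytes, cells with high lipid synthesis, 6 were higher, with a median of -0.05 and a mean of 6.69 to 6.75 with norepinephrine and 6.55 to 6.92 with KCl. Mbp, a defining myelin gene, differed by -0.05 ± 0.25. The part of these cell types in the values of the sterol and fatty acid genes was not tested.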

How the data were processed

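RNA from 6 neurosphere samples was run on 1 whole-transcript array each. Values are the log2 numbers the authors deposited for each probe set. RMA and Partek appear in the submitters' processing notes, without versions or settings. Detection above background was not assessed, and the number of arrays limits the precision. The table held 34760 probe sets, of which 21640 had 1 gene symbol, 1321 several and 11799 none in the platform table. By Entrez identifier 21553 of them matched RefSeq genes of GRCm38.p6, which changed 0 symbols. Groups were taken from the sample titles.

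Differences were fitted with limma 3.58.1 in R 4.3.3 (lmFit, eBayes) on all 21640 probe sets without covariates. Tests were two-sided, p-values were adjusted by Benjamini-Hochberg, and the threshold was 0.05. The fit was tested on simulated data whose changes were far larger than the differences reported here, so this says nothing of its power for them. Medians and counts of gene groups are descriptions. All 30 listed genes are named, with up to 4 genes at an unadjusted p under 0.05 from each further pathway list, and Gfap, Mbp and Aif1 as markers. The genes, lists and comparisons were chosen with earlier results of these data known. Promoter windows came from RefSeq and were searched for 9 motif spellings on both strands. Alternatives covered leaving out each array, further quantile normalization, centring, a filter on dim probe sets, the replicate block, variance moderation, array weights and averaging probe sets.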

Additional observations from a re-analysis of the deposited data

How the results depend on the processing

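No gene of either branch was called by limma under any alternative run, which were leaving out each array, quantile normalization, centring, leaving out probe sets under the 30th percentile, the replicate block, trend, robust, gene-by-gene array weights and the mean of all probe sets of a gene. The default array weights stopped before converging and were not used. Over all probe sets 0 were called, 0 to 4 when an array was left out and 1454 with gene-by-gene weights, which were chosen after seeing the data and gave KCl replicate 3 a weight of 6.76, against 0.158 and 0.288 for KCl replicates 1 and 2. At an unadjusted p, a count also chosen after seeing the data, the 29 genes gave 0, then 0 to 8 when an array was left out and 4 with those weights, against 23.2% of all genes and 30.3% of the level band under the same weights. The count higher with norepinephrine was 25, or 16 to 25 when an array was left out.

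When an array was left out, the sterol median ranged from 0.03 to 0.50, the fatty acid median from -0.032 to 0.55 and the control median from 0.05 to 0.19. The control median was -0.0548 after quantile normalization, where Idi1, Srebf1, Srebf2 and Scap also turned to -0.15, -0.0885, -0.0548 and -0.0088. With gene-by-gene weights Tm7sf2, Scap, Insig1, Acly and Fasn turned to -0.042, -0.0652, -0.0399, -0.11 and -0.16, and Stard4 to 0.25. Signs also turned when an array was left out, with ranges of -0.0549 to 0.56 for Hmgcs1, -0.0764 to 0.18 for Idi1, -0.25 to 0.98 for Sqle, -0.0925 to 0.50 for Cyp51, -0.0765 to 0.11 for Tm7sf2, -0.22 to 1.24 for Msmo1, -0.20 to 0.0251 for Sc5d, -0.0393 to 0.11 for Srebf1, -0.0027 to 0.19 for Srebf2, -0.16 to 1.07 for Insig1, -0.37 to 0.0638 for Stard4, -0.0845 to 0.37 for Acly, -0.0554 to 0.55 for Acaca and -0.0321 to 0.31 for Fasn. The cause of these changes was not tested.

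Nothing in the labels says that equal replicate numbers mark a shared animal or culture, so the numbers were not taken as pairs. Samples with equal numbers correlated in their deviations from the group means at 0.30, 0.63 and 0.09 for numbers 1, 2 and 3. Norepinephrine replicate 3 correlated with KCl replicate 1 at 0.31. Such deviations also carry the overall spread of each array, with standard deviations from 1.38 to 1.78. These correlations therefore cannot show whether cultures were shared. With the replicate block 0 of the 29 genes and 0 probe sets were called, and 0 of the 29 had an unadjusted p under 0.05.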
